A study of Mus musculus with 16 samples.

Results

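The genes described here encode the digestive enzymes of the lysosome, its membrane proteins and the proton pump that acidifies it. They are 51 mouse genes chosen by symbol: 9 cathepsins, 26 other hydrolases and membrane proteins, and 16 subunits of the vacuolar proton pump (V-ATPase). The arrays carry probes of 49 of them, 77 probes in all among 25697, and 47 were measured: 9 cathepsins, 24 other genes and 14 V-ATPase subunits, among 7082 named genes measured. The probes of Sgsh and Atp6v0d2 were detected on 0 of 16 arrays, with raw signals of 145 to 188 and 128 to 144. Atp6v0d2 is the V-ATPase subunit known from osteoclasts. Npc1 and Atp6v0c were not analysed here.

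Macrophages were grown with recombinant M-CSF from bone marrow of 12 week old C57BL6 mice, and their RNA was hybridised to 16 single-colour Illumina arrays. The groups were Ndst1f/fLysMCre+ (labelled Ndst1-deficient) with agLDL, Ndst1f/fLysMCre- (labelled wild-type) with agLDL, Ndst1f/fLysMCre+ untreated and Ndst1f/fLysMCre- untreated, with 4 arrays each. Both genotypes thus carry the floxed Ndst1 alleles, and only the deficient mice carry the Cre, which is driven by the lysozyme M gene of myeloid cells. Treated cells received 50 µg/ml aggregated LDL (agLDL) for 24 hours, and treated and untreated cells were kept in lipoprotein-deficient serum during that time. Each genotype had 2 mice, and each mouse and treatment was measured on 2 arrays. An array is named below by its mouse number and its duplicate number, so that 2.1 is mouse 2, duplicate 1. A mouse 1 with the Cre and a mouse 1 without it are different animals, 4 arrays share an animal, and the labels do not say what the 2 duplicates of a mouse share. Wild-type arrays lay on 1 slide and Ndst1-deficient arrays on the other, and each number took the same slide positions on both. Genotype and slide, and number and position, cannot be told apart. Ndst1 itself was not analysed here, so the genotype labels were not checked against it.

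Lysosomal hydrolases are active at acid pH. The V-ATPase supplies it: its cytosolic V1 part splits ATP and turns a rotor, and its V0 part in the membrane carries the protons. In macrophages the compartment takes up lipoproteins, matrix and dying cells, frees cholesterol from lipoprotein and breaks down heparan sulfate. The transcription factor Tfeb, itself one of the 51, is known to activate many lysosomal genes through the promoter element CLEAR, whose core is CACGTG. The letters CACGTG were therefore searched in the promoters of the members, in windows of 300 bases around the annotated start, most of them before it (RefSeq, GRCm38.p6). CACGTG is its own reverse complement, so 1 search covers both strands. Of the 42 members with a window, 15 (35.7%) held it, against 2187 of 27025 genes (8.09%) in the whole promoter table. By class these were 3 of 7 cathepsins, 8 of 24 other genes and 4 of 11 V-ATPase subunits. The longer palindrome of the CLEAR consensus, which contains CACGTG, was in the window of 0 of the 42 members and of 100 genes of the table (0.37%). The promoters of 5 genes described below are shown with CACGTG in capitals, 5′ to 3′ on the gene's strand, because they show how differently the element sits. Atp6v0d1 and Atp6v0e hold it within 4 bases of the start. Gla and Mcoln1 hold it at 2 places, and the promoter of Ctsk holds none.
Atp6v0d1: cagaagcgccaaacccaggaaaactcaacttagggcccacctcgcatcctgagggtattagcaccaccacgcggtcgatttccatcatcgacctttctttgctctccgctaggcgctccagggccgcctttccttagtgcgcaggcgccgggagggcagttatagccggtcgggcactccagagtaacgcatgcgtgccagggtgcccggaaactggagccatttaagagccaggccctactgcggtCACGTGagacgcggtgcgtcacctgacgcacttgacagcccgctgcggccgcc
Atp6v0e: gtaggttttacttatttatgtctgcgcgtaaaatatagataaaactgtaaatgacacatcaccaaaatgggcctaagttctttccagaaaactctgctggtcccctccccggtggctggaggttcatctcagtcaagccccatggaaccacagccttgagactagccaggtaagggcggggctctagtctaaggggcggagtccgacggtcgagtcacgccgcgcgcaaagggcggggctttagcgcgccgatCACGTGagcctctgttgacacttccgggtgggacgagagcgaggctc
Gla: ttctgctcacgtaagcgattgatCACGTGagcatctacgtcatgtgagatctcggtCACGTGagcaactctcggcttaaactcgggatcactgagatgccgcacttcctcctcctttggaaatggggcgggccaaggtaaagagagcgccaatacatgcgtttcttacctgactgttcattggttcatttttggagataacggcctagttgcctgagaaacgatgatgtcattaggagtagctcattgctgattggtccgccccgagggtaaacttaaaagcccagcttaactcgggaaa
Mcoln1: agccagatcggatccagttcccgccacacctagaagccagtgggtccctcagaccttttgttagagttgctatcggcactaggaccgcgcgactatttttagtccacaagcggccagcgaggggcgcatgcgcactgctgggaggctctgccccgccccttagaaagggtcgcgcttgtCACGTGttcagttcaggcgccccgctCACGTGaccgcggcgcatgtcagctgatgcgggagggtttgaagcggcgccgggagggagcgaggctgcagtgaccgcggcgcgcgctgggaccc
Ctsk: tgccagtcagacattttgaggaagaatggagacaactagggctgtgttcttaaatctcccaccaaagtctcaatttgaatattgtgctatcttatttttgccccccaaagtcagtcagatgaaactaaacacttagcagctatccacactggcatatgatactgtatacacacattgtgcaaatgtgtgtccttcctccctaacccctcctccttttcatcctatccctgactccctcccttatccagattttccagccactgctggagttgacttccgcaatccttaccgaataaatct
These windows lie at chr8:105566015-105566314 (minus strand), chr17:26676146-26676445 (plus strand), chrX:134600956-134601255 (minus strand), chr8:3500269-3500568 (plus strand) and chr3:95498960-95499259 (plus strand). A match describes the letters only.

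The arrays detected 9241 to 10115 probes each, with raw 75th percentiles of 312 to 386. The mouse and duplicate number together took 67.9% of the variance of all genes and 56.7% of that of the members. Among the members, duplicate number took 41.0%, mouse number 12.5%, genotype 10.3% and treatment 5.15%. Over all genes these shares were 38.6%, 26.0%, 5.46% and 3.38%. Within the classes the share of duplicate number was 61.0% in the V-ATPase, 50.0% in the cathepsins and 17.9% in the other genes. All 10 neutrophil markers, the 6 macrophage markers with a probe, 3 of 9 osteoclast and 3 of 10 stromal markers were detected, and 0 of 9 dendritic and 0 of 10 lymphoid, erythroid and mast cell markers were. The untreated Ndst1-deficient array 1.2 stood apart from the other arrays, both in the members and over all genes. It was the highest or lowest of the 4 arrays of its number in 40 of the 47 members, highest in 12 and lowest in 28. Its root mean square deviation from the other arrays of its number was 0.469 on the log2 scale over the members, against 0.129 to 0.241 for the other 15 arrays. Over all genes this deviation was 0.401, against 0.198 to 0.252 for the other 15 arrays. On it Naglu read 6.56 against 7.59 to 8.07 on the other arrays 1.2, and Ctsz read 12.37 against 11.08 to 11.60. Some results are given both with and without this array. In the labelled comparisons, leaving it out leaves mouse 1 of its group with duplicate number 1 alone. The difference between duplicate numbers then enters the values without it.

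**Figure D1:**
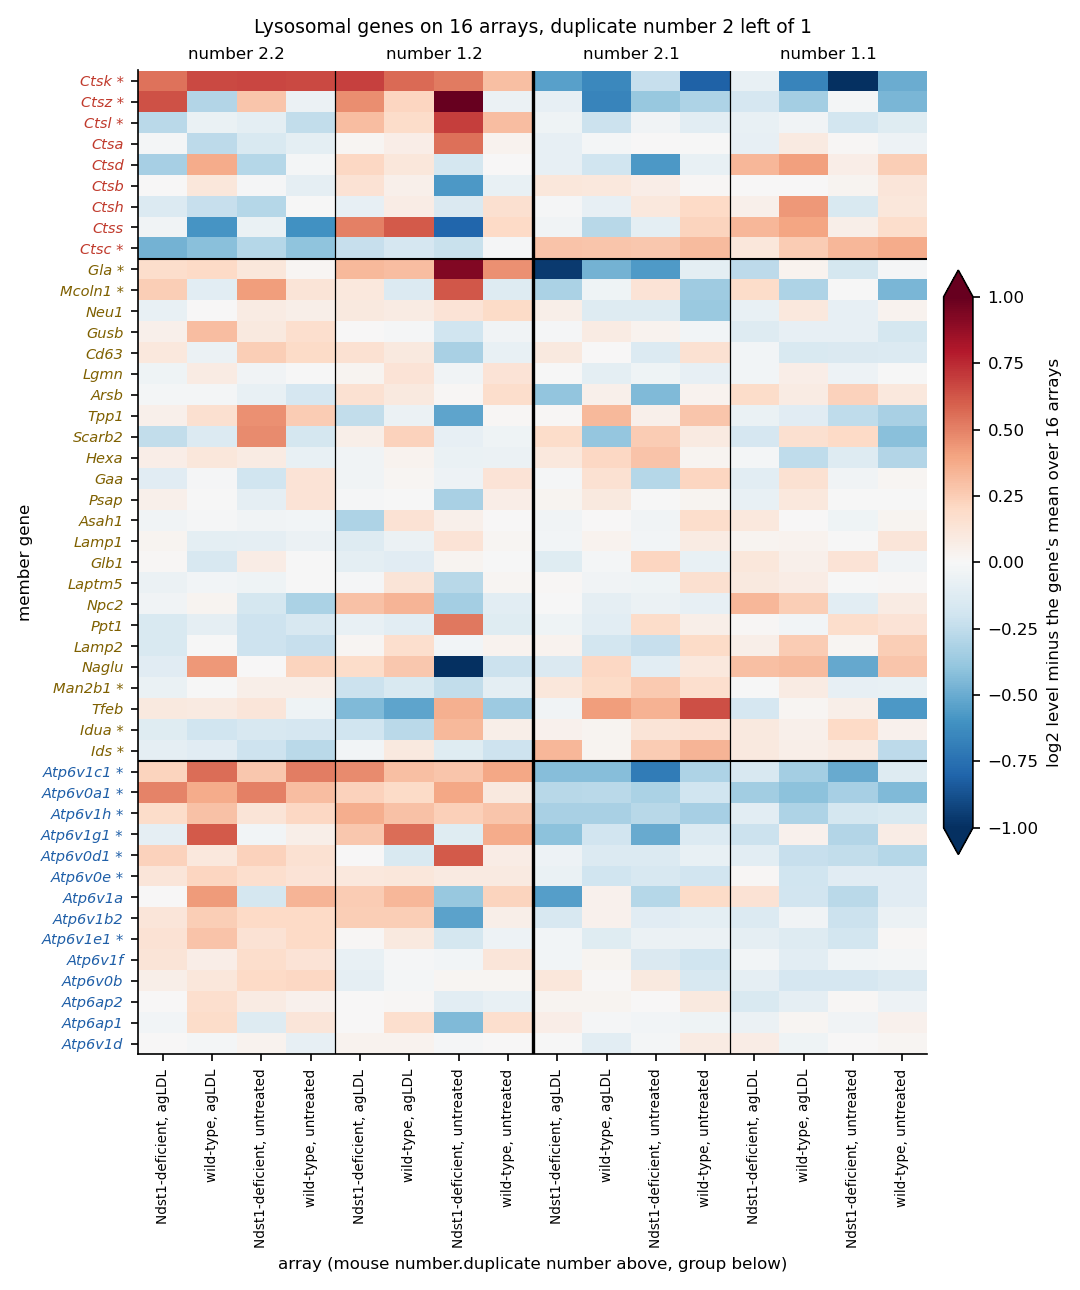
Log2 level of each of the 47 measured members minus its mean over the 16 arrays, with cathepsins (red names), other hydrolases and membrane proteins (brown) and V-ATPase subunits (blue) from top to bottom. Columns are arrays, those of duplicate number 2 to the left of those of duplicate number 1, the colour scale saturates at 1, and stars mark the 16 members that passed the test between duplicate numbers. The V-ATPase rows are mostly red on the left and blue on the right, and untreated Ndst1-deficient array 1.2 differs from its neighbours in most rows.

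Several proton pump subunits were higher on the arrays of duplicate number 2 than on those of duplicate number 1, and the cathepsin gene Ctsk was among the members that moved most. Of the 14 subunits, 7 rose and 0 fell, by 0.16 to 0.75 on the log2 scale. Cathepsins went both ways: Ctsk, Ctsz and Ctsl rose and Ctsc fell. Among the 24 other genes Gla and Mcoln1 rose and Ids, Idua and Man2b1 fell. In all, 16 of 47 members passed (12 higher, 4 lower), which is 34.0% against 48.6% of all 7647 genes and probes tested (23.1% higher, 25.5% lower). Levels here are log2 normalised signals, a member passes at a limma adjusted p under 0.05 over all 7647, and the difference is fitted over 8 arrays a side with the group as a term. Levels of different probes cannot be compared. At an unadjusted p under 0.05 there were 22 members, against 54.7% of all genes. The members' share was thus under the background, and the shares of the classes were 50.0% for the V-ATPase, 44.4% for the cathepsins and 20.8% for the other genes. The 14 subunits had a median change of 0.23, with all 14 estimates at or above 0.00047, against a median of -0.02 over all genes. Over all genes 3605 of 7647 estimates were positive. In bulk RNA, more RNA per cell and more cells of a kind cannot be told apart.

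Atp6v1c1, the V1 subunit that joins the pump's V1 and V0 parts, had the largest change of the subunits on the probe that stands for each gene. On arrays 2.2 it read 10.93, 11.26, 10.97 and 11.21, and on arrays 1.2 it read 11.18, 11.00, 10.98 and 11.09. On arrays 2.1 it read 10.28, 10.28, 10.01 and 10.39, and on arrays 1.1 it read 10.55, 10.37, 10.20 and 10.58. These and the following sets of 4 are in the order Ndst1-deficient with agLDL, wild-type with agLDL, Ndst1-deficient untreated, wild-type untreated. All 8 arrays of duplicate number 2 lay above all 8 of duplicate number 1. The rise was 0.75 ± 0.06 (log2 change ± SE), or 1.68-fold, with a limma adjusted p of 9.1e-07. Atp6v0a1, the V0 subunit through which protons pass, showed the same separation. It read 13.04, 12.92, 13.05 and 12.86 on arrays 2.2 and 12.78, 12.74, 12.94 and 12.65 on arrays 1.2, against 12.27, 12.28, 12.23 and 12.35 on arrays 2.1 and 12.20, 12.14, 12.22 and 12.11 on arrays 1.1. Its rise was 0.65 ± 0.05 (limma adjusted p = 6.8e-07), and a dimmer probe of the gene rose by 0.97. With the probes of a gene averaged, Atp6v0a1 rose by 0.808 and was the largest of the subunits.

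Atp6v1h, a regulatory V1 subunit, averaged 12.72 ± 0.07 on duplicate number 2 and 12.22 ± 0.09 on duplicate number 1 (SD, 8 arrays each), again with no overlap, and rose by 0.50 ± 0.05 (limma adjusted p = 3.7e-06). Atp6v1g1, of the peripheral stalk, ranged from 10.03 over a median of 10.32 to 10.76 on duplicate number 2, against 9.65, 9.95 and 10.22 on duplicate number 1. These ranges overlap, but the difference was positive in 8 of 8 pairs of duplicates (0.18 to 0.80), and the rise was 0.41 ± 0.07 (limma adjusted p = 4.1e-04). Of the V0 subunits, Atp6v0d1, which couples the rotor to the membrane ring, rose by 0.31 (limma adjusted p = 0.007) and the small subunit Atp6v0e by 0.26 (limma adjusted p = 6.2e-04), each in 8 of 8 pairs. All 4 kept probes of Atp6v0d1 rose. Atp6v1e1, a stalk subunit, rose by 0.16 (limma adjusted p = 0.020). Atp6v1a and Atp6v1b2, which form the ATP-splitting head, changed by 0.26 and 0.19 and did not pass (limma adjusted p = 0.057 and 0.073).

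The accessory subunits Atp6ap1 and Atp6ap2 had fitted changes of 0.01 and 0.03. Of the 4 kept probes of Atp6ap2, the brightest, which stands for the gene, is the one with 0.03, and the 3 dimmer probes had 0.13, 0.19 and 0.20, of which the larger 2 passed. Atp6v1d of the central rotor had 0.0005, with a 95% interval of -0.10 to 0.10. The 4 subunits with the largest changes and Ctsc and Ctsk kept these calls in every setting tried, except Atp6v1g1, which missed the threshold within the untreated arrays (0.29, limma adjusted p = 0.089). Without array 1.2 of untreated Ndst1-deficient cells, 9 of 14 subunits rose. The counts within single slides or treatments were 7 or smaller, with fewer arrays in each. There, 6 subunits rose within the wild-type slide, 4 within the Ndst1-deficient slide, 7 within agLDL arrays and 4 within untreated arrays, and 0 fell in any of these. The share of all genes that passed in these settings is not given here, so the counts show only whether the calls of the subunits held. Of 5 measured V-ATPase genes outside the 51, Atp6v0a2 rose by 0.20, and Rogdi, which encodes an assembly factor, and Atp6v1g2 fell by 0.87 and 0.80. These are 60% of the 5, against 48.6% of all genes.

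**Figure D2:**
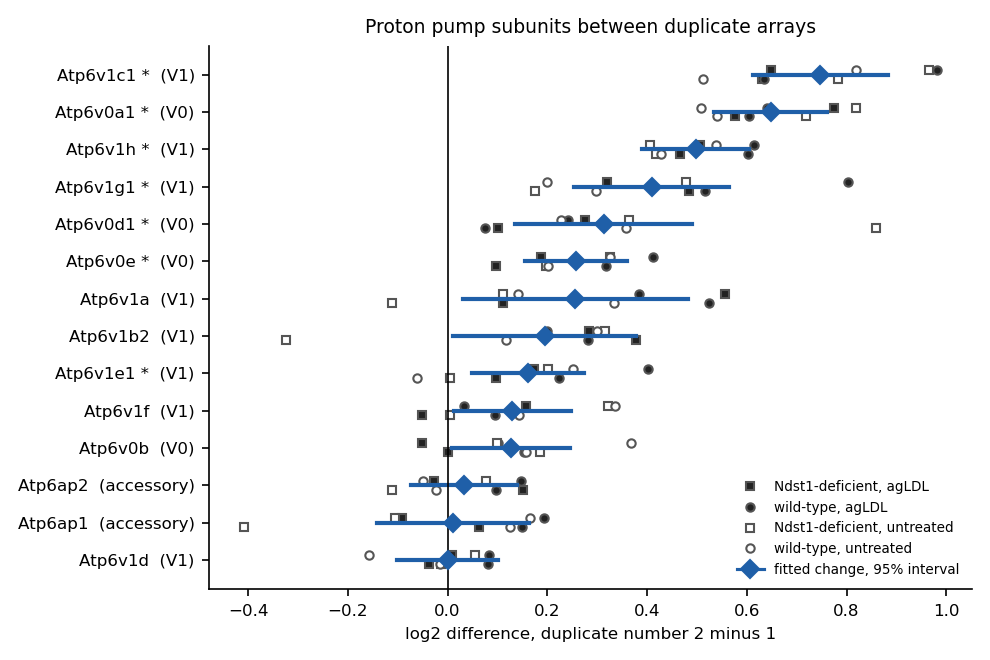
Log2 difference between the duplicate arrays (number 2 minus number 1) for each of the 14 V-ATPase subunits, with 8 pairs of arrays as points, those of mouse 2 drawn above those of mouse 1, and the fitted change with its 95% interval as a diamond and bar. Stars mark the 7 subunits that passed, and all 8 points lie right of 0 in the upper 6 rows.

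Ctsk encodes cathepsin K, a collagen-degrading protease known from osteoclasts. It read 7.40, 7.52, 7.53 and 7.52 on arrays 2.2 and 7.54, 7.43, 7.38 and 7.16 on arrays 1.2. On arrays 2.1 it read 6.32, 6.21, 6.63 and 6.05, and on arrays 1.1 it read 6.79, 6.20, 5.73 and 6.36. Every array of duplicate number 2 lay above every array of duplicate number 1, and the rise was 1.15 ± 0.12, or 2.22-fold (limma adjusted p = 6.5e-06). Without background correction the rise was 0.548, less than that of Atp6v1c1 (0.694). The probe was dim, with raw signals of 170 to 325, and was detected on 8 of 8 arrays of duplicate number 2 and 7 of 8 of duplicate number 1. Osteoclast markers other than Ctsk did not move as a group: Mmp9 and Nfatc1 fell by 0.70 and 0.59, Tnfrsf11a rose by 0.27, and Acp5, Dcstamp, Ocstamp, Calcr, Itgb3 and Oscar were not detected. The summed linear level of the 3 detected ones was 2277 to 2764 on duplicate number 2 and 2945 to 3823 on duplicate number 1.

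Ctsz, a carboxypeptidase, ranged from 10.84 over a median of 11.38 to 12.37 on duplicate number 2, against 10.47, 10.81 and 11.12 on duplicate number 1. It was higher on duplicate number 2 in 8 of 8 pairs (0.25 to 1.25), and rose by 0.60 ± 0.12 (limma adjusted p = 0.001). Its second kept probe rose by 0.55, and without untreated Ndst1-deficient array 1.2 the rise was 0.50. Ctsc, the dipeptidyl peptidase that activates granule serine proteases, ran the other way. It read 13.33, 13.39, 13.52 and 13.41 on arrays 2.2 and 13.58, 13.64, 13.59 and 13.80 on arrays 1.2, against 14.09, 14.09, 14.08 and 14.12 on arrays 2.1 and 13.93, 14.06, 14.14 and 14.18 on arrays 1.1. All 8 arrays of duplicate number 2 were below all 8 of duplicate number 1, and the gene fell by 0.55 ± 0.05 (limma adjusted p = 1.8e-06). Its 3 probes all fell, by 0.55, 0.65 and 0.79.

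Ctsl, an endopeptidase, rose by 0.20 ± 0.07 (limma adjusted p = 0.027), but in only 5 of 8 pairs. Its mean was 8.90 ± 0.22 on arrays 1.2, against 8.35 ± 0.10 on arrays 2.2, 8.42 ± 0.08 on 2.1 and 8.42 ± 0.06 on 1.1 (SD, 4 arrays each), so the 4 arrays 1.2 alone stood higher. The test of whether the duplicate difference depends on the mouse number gave -0.55 for Ctsl (unadjusted p = 0.002, limma adjusted p = 0.198). In that test 0 of 47 members passed, against 0.105% of all genes (0.0131% higher, 0.0915% lower). An unadjusted p under 0.05 was found for 5 members (Ctsl, Ctsc, Ids, Ctsd and Hexa), against 8.33% of all genes. The call of Ctsl between duplicates was lost without wild-type agLDL array 2.1 or 2.2 or untreated Ndst1-deficient array 1.1. The other 5 cathepsins, Ctsa, Ctsb, Ctsd, Ctsh and Ctss, changed by -0.19 to 0.03 and did not pass.

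Gla, alpha-galactosidase A, rose by 0.63 ± 0.11 (limma adjusted p = 3.3e-04). It ranged from 6.92 over a median of 7.16 to 7.83 on duplicate number 2, against 5.95, 6.68 and 6.94 on duplicate number 1, and was higher in 8 of 8 pairs. The rise was 0.306 without background correction and 0.383 within the wild-type slide, both past the threshold. Mcoln1, the calcium channel of the lysosomal membrane, ranged from 7.82 over 8.07 to 8.57 on duplicate number 2, against 7.50, 7.77 and 8.13 on duplicate number 1. Its ranges overlap more, and it rose by 0.29 ± 0.09 in 6 of 8 pairs (limma adjusted p = 0.016). Ids and Idua, which take sulfate and iduronic acid off heparan sulfate, fell by 0.23 and 0.18 (limma adjusted p = 0.013 and 0.034), and the mannosidase Man2b1 fell by 0.17 in 8 of 8 pairs (limma adjusted p = 0.014). The call of Idua was lost on leaving out any of 10 single arrays. Tfeb was detected on 5 of 8 arrays of each duplicate number and changed by -0.18 (limma adjusted p = 0.256). Gusb, beta-glucuronidase, did not pass on its brightest probe (0.10), whereas its 2 dimmer probes rose by 0.32 and 0.27.

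Across the 12 members with several kept probes, the probes had the same sign in 12 between duplicate numbers, and in 4 of them (Ctsc, Ctsz, Atp6v0a1 and Atp6v0d1) every probe passed. Non-overlap of the 8 and 8 arrays occurred in 6 members (Ctsc, Ctsk, Atp6v0a1, Atp6v0e, Atp6v1c1 and Atp6v1h), against 10.4% of all genes. One direction in all 8 pairs occurred in 11 members, against 31.5% of all genes. Among the other lysosomal genes, a list of 61 with 40 measured, 7 rose and 12 fell (47.5%, near the 48.6% of all genes). The largest changes were in Ctsf (cathepsin F, -1.04), Arsg (arylsulfatase G, -0.78), Sidt2 (-0.71) and Hpse (heparanase, -0.70). Of the 9 members that rose and have a promoter window, 5 held CACGTG (Ctsl, Mcoln1, Gla, Atp6v0d1 and Atp6v0e), as did 0 of the 4 that fell and 9 of the 27 that did not pass. Between mouse numbers 1 of the 7 that rose held it, as did 3 of the 5 that fell and 10 of the 28 that did not pass. Of the 6 macrophage markers 3 passed between duplicate numbers (50%, near the 48.6% of all genes): Adgre1, Cd14 and Itgam fell by 0.55, 0.54 and 0.39. The summed linear level of the 6 was 58290 to 62190 on duplicate number 2 and 63750 to 71830 on duplicate number 1. Of the 10 neutrophil markers 3 rose and 1 fell (40%), with sums of 15660 to 21960 on duplicate number 2 and 15110 to 26850 on duplicate number 1. The part of these markers in the lysosomal differences was not tested.

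**Figure D3:**
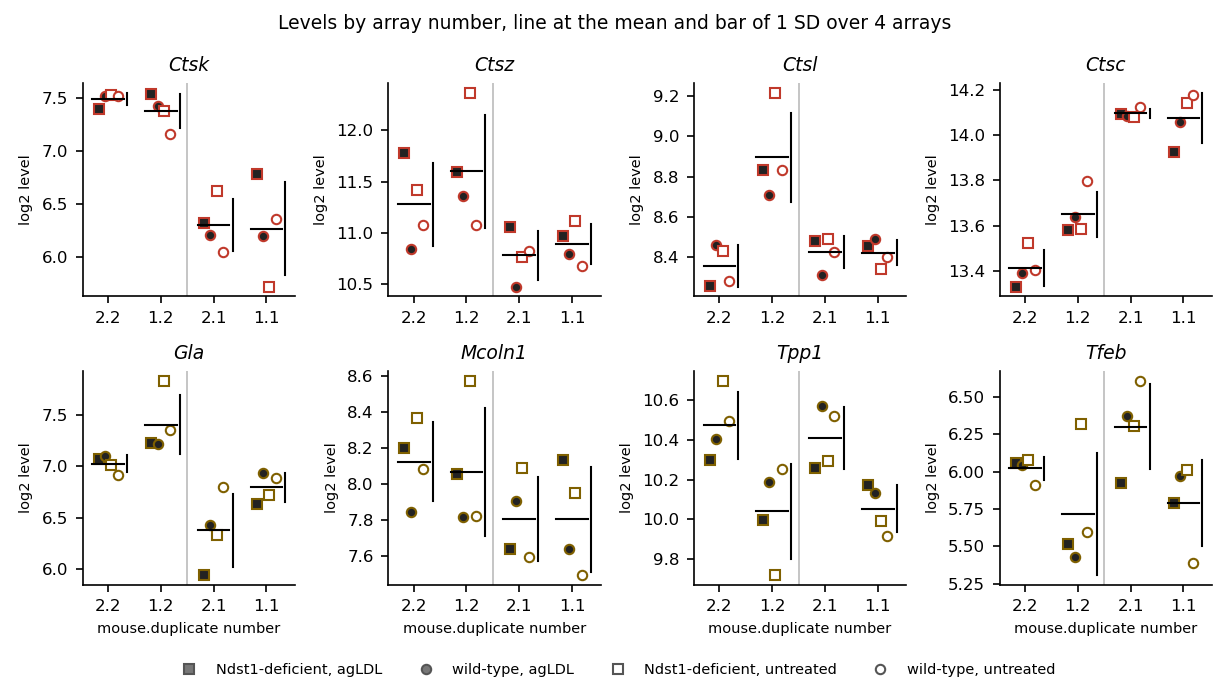
Log2 level of 8 members on the 16 arrays, grouped by mouse and duplicate number with duplicate number 2 on the left, and marked by group. Lines are means and bars 1 SD over 4 arrays. Ctsk and Ctsc separate by duplicate number, Ctsl is high on arrays 1.2, and Tpp1 is higher on the arrays of mouse 2.

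Between mouse numbers 12 members differed, against 16 between duplicate numbers. The other hydrolases and membrane proteins did not follow that order: 8 of 24 (33.3%) differed between mouse numbers, near the 33.0% of all genes. Between duplicate numbers 5 of 24 (20.8%) differed, against 48.6% of all genes. In that class mouse number took 20.4% of the variance and duplicate number 17.9%. Of 47 members, 12 passed (25.5%), against 33.0% of all genes, 7 higher and 5 lower on mouse number 2 than on mouse number 1 (18.1% and 14.9% of all genes). At an unadjusted p under 0.05 there were 18 members, against 42.3% of all genes. Each side is 2 mice, 1 of each genotype, with 4 arrays a mouse, and this fit takes the 16 arrays as separate. Over the 8 averaged values 6 members passed: Tpp1 and Tfeb rose and Ctsd, Ctsl, Gla and Arsb fell, and Hexa, Man2b1, Gusb, Lamp2, Atp6v0b and Atp6v0a1 did not pass. The share of all genes that passed over the averaged values is not given here. On the probes that stand for the genes, Ctsd and Ctsl fell and 0 cathepsins rose, though 2 dimmer probes of Ctsa rose, and the median of the 9 was -0.16 against 0.01 over all genes. Among the other genes 5 rose and 3 fell, and among the V-ATPase subunits 2 rose and 0 fell.

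Tpp1, a tripeptidyl peptidase of the lysosome, had the clearest difference. It read 10.30, 10.40, 10.70 and 10.50 on arrays 2.2 and 10.26, 10.57, 10.30 and 10.52 on arrays 2.1, against 10.00, 10.19, 9.72 and 10.26 on arrays 1.2 and 10.18, 10.13, 9.99 and 9.92 on arrays 1.1. The lowest array of mouse number 2 was just above the highest of mouse number 1, which was seen in 1 member and in 4.16% of all genes. It rose by 0.40 ± 0.09 in 8 of 8 pairs (limma adjusted p = 0.004), and within agLDL arrays the difference was 0.26 and did not pass. Tfeb ranged from 5.91 over a median of 6.07 to 6.61 on mouse number 2, against 5.39, 5.69 and 6.32 on mouse number 1. Its probe was above background in 7 of the 8 mouse 2 samples but in 3 of the 8 mouse 1 samples, so it was measured largely through the side where it was higher. Its limma adjusted p was 0.021, and the size of the difference is not settled: it was 0.41 here, 0.135 without background correction, 0.636 within the wild-type slide and 0.181 within the Ndst1-deficient slide, where it did not pass. The call was lost without untreated wild-type array 1.1 or Ndst1-deficient agLDL array 2.2. Hexa, Man2b1 and Gusb, which remove sugars from glycolipids, glycoproteins and glycosaminoglycans, rose by 0.20, 0.20 and 0.18 (limma adjusted p = 0.011, 0.009 and 0.018).

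Gla ranged from 5.95 over a median of 6.86 to 7.10 on mouse number 2, against 6.64, 7.07 and 7.83 on mouse number 1, and fell by 0.40 ± 0.11 in 8 of 8 pairs (limma adjusted p = 0.012). It was thus highest on arrays 1.2 and lowest on arrays 2.1. Arsb, a sulfatase of dermatan and chondroitin sulfate, fell by 0.26 (limma adjusted p = 0.020, lost without untreated wild-type array 2.2). Ctsd, an aspartic protease, fell by 0.30 (limma adjusted p = 0.013; 0.052 without background correction, at -0.116) on a dim probe detected on 15 of 16 arrays, and Ctsl by 0.27 (limma adjusted p = 0.010) with arrays 1.2 high as above. Lamp2, a membrane glycoprotein, fell by 0.19 on its brightest probe (limma adjusted p = 0.036), and its other 3 probes had -0.11, 0.09 and 0.31. Atp6v0b and Atp6v0a1 rose by 0.16 and 0.15 (limma adjusted p = 0.040 and 0.038). The calls of Lamp2, Atp6v0b and Atp6v0a1 were lost on leaving out any of 10, 11 and 13 of the 16 single arrays. Mcoln1 and Ctsk had fitted changes of 0.03 and 0.07 (limma adjusted p = 0.844 and 0.696).

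Ctsl, Gla, Man2b1 and Atp6v0a1 passed in both number comparisons, and 23 of 47 members passed in neither. The median SD over the 16 arrays was 0.18 for the members and 0.25 over all genes. Probes agreed less between mouse numbers than between duplicates: in 6 of the 12 members with several kept probes all had the same sign. Of the dimmer probes of Ctsa, 2 rose by 0.41 and 0.32, the other fell by 0.20, and the brightest had -0.16 and did not pass. One direction in all 8 pairs was seen in 8 members and in 21.0% of all genes. Among the other lysosomal genes 9 of 40 rose and 4 fell (32.5%, near the 33.0% of all genes), with the largest changes in Sort1 (0.98), Ctsf (0.91), Tpcn1 (0.56) and Galc (0.54). The 3 detected stromal markers were lower on mouse number 2. Acta2, detected on all 16 arrays, fell by 1.66, Sparc was above background in 0 of the 8 mouse 2 samples and 8 of the 8 mouse 1 samples, and Col1a1 in 0 and 4 of them. Their summed linear level was 602.6 to 930.1 on mouse number 2 and 2062 to 2943 on mouse number 1, Col1a2, Col3a1, Lum, Dcn and Cdh5 were detected on no array. Of the neutrophil markers 3 rose and 0 fell (sums of 19280 to 26850 on mouse number 2 and 15110 to 20580 on mouse number 1), and of the osteoclast markers Mmp9 and Nfatc1 rose and Tnfrsf11a fell. Of the 6 macrophage markers 3 rose and 1 fell (sums of 59900 to 71830 on mouse number 2 and 58290 to 69220 on mouse number 1). The shares that passed were 30% of the neutrophil and 66.7% of the macrophage markers, against 33.0% of all genes. The part of these markers in the lysosomal differences was not tested.

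**Figure D4:**
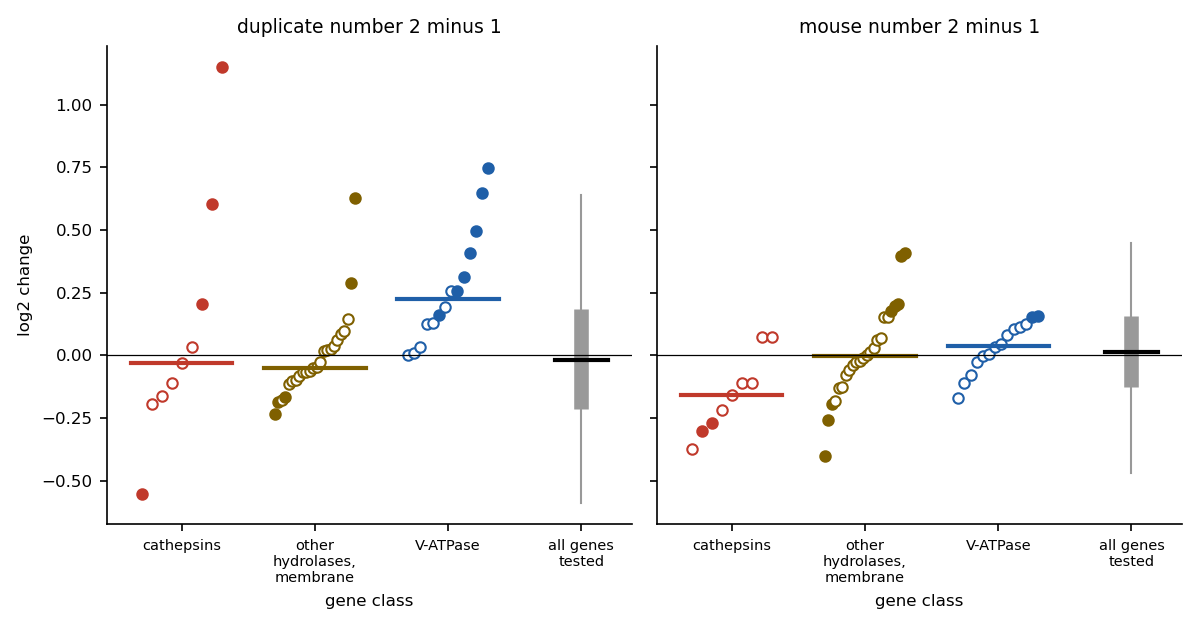
Fitted log2 change of each member between duplicate numbers (left) and mouse numbers (right), number 2 minus number 1, by class. Filled points passed at a limma adjusted p under 0.05, horizontal lines are medians, and the grey bars span the 25th to 75th percentile and the thin lines the 5th to 95th percentile of all 7647 tested. The V-ATPase median of 0.23 on the left lies above the 75th percentile of all genes, 0.184.

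The labelled comparisons ask whether agLDL loading or the deletion of Ndst1, an enzyme that sulfates heparan sulfate, changes the lysosomal genes. No member passed in any of the 5, fitted with limma over 8 values, 1 per mouse and treatment, with 2 mice a group. Treated and untreated values of the same mouse were not paired in this fit, so differences between mice stay in its spread. Of all 7647 tested, 0% passed as well, in agLDL against untreated under either genotype label, in Ndst1-deficient against wild-type with or without agLDL, and in the interaction. At an unadjusted p under 0.05 there were 0 of 47 members for agLDL in Ndst1-deficient cells, 0 for agLDL in wild-type cells, 1 for genotype with agLDL, 2 for genotype in untreated cells and 0 for the interaction. The shares of all genes were 3.09%, 0.588%, 2.63%, 5.01% and 1.01%. A fit of all 16 arrays with the number as a block passed 0 members in any of them, against 0.0131%, 0%, 0.0131%, 0.955% and 0% of all genes in the same order. In it 4, 1, 2, 10 and 1 members had an unadjusted p under 0.05, against 9.79%, 2.82%, 7.96%, 14.3% and 3.82% of all genes. That blocked fit placed the 95% interval within 1.5-fold in either direction for 43 of 47 members for agLDL in Ndst1-deficient cells and 46 of 47 in wild-type cells. For genotype these counts were 43 with agLDL and 40 untreated. The blocked fit takes the 16 arrays as separate, although 4 arrays share an animal, so its intervals are narrower. In the fit over 8 values the counts in the same order were 36, 39, 37 and 35 of 47, and 25 for the interaction.

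With agLDL, Npc2, which hands cholesterol from lipoproteins to the lysosomal membrane, had the smallest or second smallest p of the positive differences under both genotype labels. In Ndst1-deficient cells it read 11.00, 10.96, 10.67 and 10.64 with agLDL, against 10.56, 10.33, 10.61 and 10.49 untreated, on arrays 1.1, 1.2, 2.1 and 2.2. In wild-type cells it read 10.92, 11.01, 10.58 and 10.70 with agLDL, against 10.75, 10.56, 10.58 and 10.36 untreated. The values with agLDL were higher in 4 of 4 numbers of Ndst1-deficient cells and in 3 of 4 of wild-type cells. The differences were 0.32 ± 0.17 and 0.24 ± 0.17 (unadjusted p = 0.102 and 0.200, limma adjusted p = 1.000 each). Over the alternatives tried, the Npc2 difference ranged from 0.26 to 0.38 in Ndst1-deficient cells and from 0.18 to 0.30 in wild-type cells. Naglu, an enzyme of heparan sulfate breakdown, differed by 0.52 with agLDL in Ndst1-deficient cells (unadjusted p = 0.094), and by 0.34 without array 1.2 of the untreated cells, on which it was low. Mcoln1 and the thioesterase Ppt1 differed there by -0.24 and -0.23 (unadjusted p = 0.105 and 0.142), and by -0.08 and -0.15 without that array. The values without it have mouse 1 of the untreated cells on duplicate number 1 alone, so they carry part of the duplicate difference. In wild-type cells Atp6v1g1 differed by 0.16, Idua by -0.12 and Atp6v1c1 by -0.09 (unadjusted p of 0.296 or more).

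Between genotype labels, Mcoln1 had the smallest p of the members in untreated cells. It read 7.95, 8.57, 8.09 and 8.37 in Ndst1-deficient cells, against 7.50, 7.82, 7.59 and 8.08 in wild-type cells, on arrays 1.1, 1.2, 2.1 and 2.2. The Ndst1-deficient array was the higher one in 4 of 4 numbers. The difference was 0.49 ± 0.13 (unadjusted p = 0.006, limma adjusted p = 0.876), and the limma adjusted p was 0.096 with the number as a block. Without untreated Ndst1-deficient array 1.2 it was 0.34, and with agLDL it was 0.21 (unadjusted p = 0.147). Ctsz differed by 0.50 in untreated cells and 0.48 with agLDL (unadjusted p = 0.072 and 0.081). The first was 0.19 without array 1.2 and the second did not involve that array. The values of Mcoln1 and Ctsz without array 1.2 leave mouse 1 of the untreated Ndst1-deficient cells on duplicate number 1 alone. Both genes were higher on duplicate number 2, by 0.29 and 0.60, so these values carry part of the duplicate difference.

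All 8 V1 subunits of the pump had negative genotype differences in untreated cells, from -0.44 to -0.004. Of these, 1 of 8 had a limma unadjusted p under 0.05. Over all genes 4047 of 7647 were positive in this comparison. The V1 median was -0.14, against 0.01 over all genes. Without untreated Ndst1-deficient array 1.2 all 8 were again negative, from -0.478 to -0.0006, with a median of -0.119. The 4 V0 subunits were positive with that array, with a median of 0.09, and without it 3 of 4 were negative, with a median of -0.0485. Without it, mouse 1 of untreated Ndst1-deficient cells stands on duplicate number 1 alone. The difference between duplicate numbers then enters the genotype differences, and its part in the change of sign was not tested. All 10 neutrophil and all 3 stromal markers were positive in this comparison, with medians of 0.10 and 0.23, and their part in these differences was not tested. With agLDL, 4 of the 8 V1 differences were positive and the median was -0.01. Atp6v1a, of the ATP-splitting head, read 9.54, 9.43, 9.52 and 9.63 in untreated Ndst1-deficient cells, against 9.70, 10.03, 10.00 and 10.14 in untreated wild-type cells, on arrays 1.1, 1.2, 2.1 and 2.2. The Ndst1-deficient arrays were all below the wild-type ones, and the difference was -0.44 ± 0.18 (unadjusted p = 0.044, limma adjusted p = 0.995), or -0.41 without array 1.2. With agLDL the member with the smallest p was Atp6v1g1, at 9.94, 10.42, 9.74 and 10.06 in Ndst1-deficient cells, against 10.20, 10.71, 9.96 and 10.76 in wild-type cells. It was lower in 4 of 4 numbers, with a difference of -0.37 ± 0.14 (unadjusted p = 0.040, limma adjusted p = 1.000). Gaa, the glycogen-degrading glucosidase, differed by -0.27 in untreated cells and -0.15 with agLDL (unadjusted p = 0.054 and 0.245), and was lower in 4 of 4 numbers in each.

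In the interaction, the agLDL difference in Ndst1-deficient cells minus that in wild-type cells, the members with the smallest p were Atp6v1c1 (0.28) and the tetraspanin Cd63 (0.23) among positive values and Mcoln1 (-0.29) and Scarb2 (-0.35), the receptor that sorts glucocerebrosidase, among negative ones. Their unadjusted p lay between 0.152 and 0.302. The comparisons that share the same untreated or agLDL arrays are not independent of each other.

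**Figure D5:**
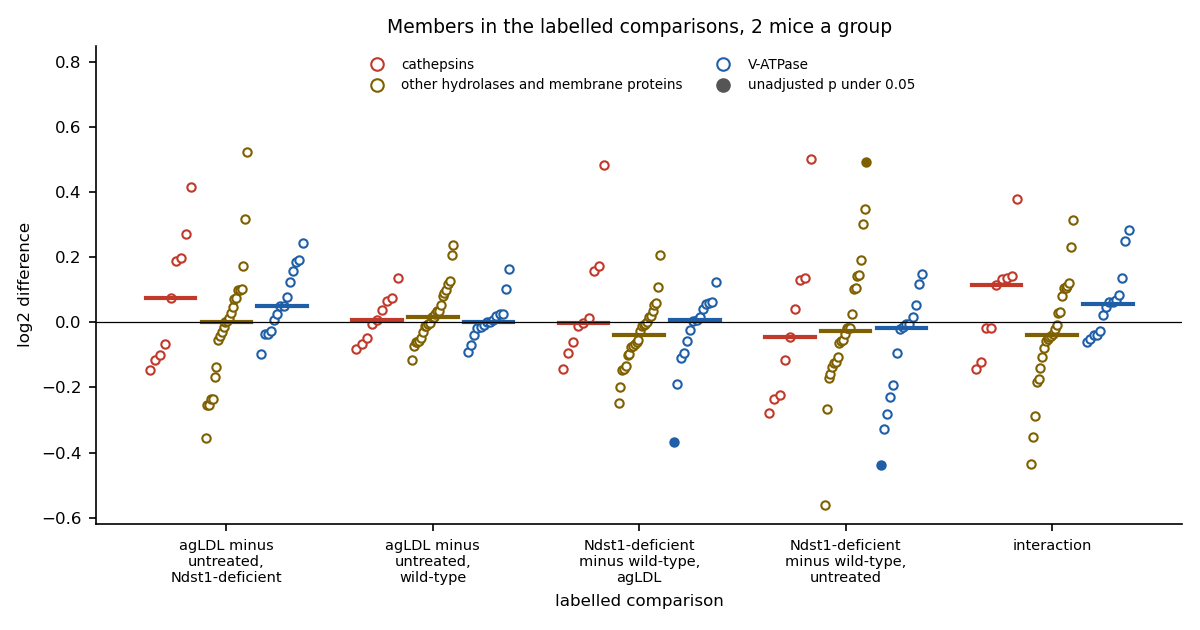
Log2 difference of each of the 47 members in the 5 labelled comparisons, by class, with lines at class medians. Filled points have an unadjusted p under 0.05 (1 in genotype with agLDL, 2 in genotype untreated), and no point passed after adjustment.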

How the data were processed

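Total RNA of 16 macrophage samples was measured on Illumina arrays. The authors' deposited table holds, per the file headers, for every probe a mean bead intensity with its detection p-value, not normalised between arrays. The submitters' processing notes name GenomeStudio without a version. The deposited series-matrix intensities, background-subtracted and on a linear scale (column medians 11.2 to 11.3), served as an alternative. Their normalisation is not given in the sources used here.

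Here limma 3.58.1 (statmod 1.5.0, R 4.3.3) ran neqc with an offset of 16, quantile normalisation and log2. Probes with a detection p under 0.01 on at least 4 of 16 arrays were kept (10224), and the probe detected on most arrays, then the brightest, stood for its gene. This gave 7082 genes and 565 probes without a symbol. Symbols come from the platform annotation (23978 of 25697 probes with 1, 0 with several, 1719 with none).

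Labelled comparisons used the mean of each mouse's duplicate arrays and the group as the only term, with 4 residual degrees of freedom. Number comparisons used 16 arrays with group and number, with 9. Same-numbered arrays correlated at 0.468 to 0.830 over all genes in deviations from group means, in all 24 pairs, and 16 of 16 arrays correlated best with their own number, so the number also served as a block. P-values were adjusted by Benjamini-Hochberg at 0.05 over all 7647, and they measure a spread that is partly technical. Named with full values were, per class and number comparison, up to 4 passing members with the largest rise and 4 with the largest fall, with Tfeb, Mcoln1 and Ctsk, and per labelled comparison the 2 smallest p in each direction. Other lists name at most 4 genes. The members and lists were chosen with earlier results of these data known. Promoters are RefSeq's (GRCm38.p6). Near the top of the scale, where raw array maxima were 39782 to 45373, differences are compressed: Psap reached 39959, Laptm5 35573, Lgmn 34228 and Lamp1 33591.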

Additional observations from a re-analysis of the deposited data

Results flagged for a closer look

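Among 108 sets of 4 arrays (27 named members in 4 groups), 2 held an array far from the other 3, or 1.85%, by Dixon's test at its 95% critical value. For 4 independent values about 1 in 20 sets is picked by chance. These sets are 2 mice with 2 arrays each, and members were named partly for differences between numbers. The 1.85% can therefore not be compared with that rate. Ctsl read 9.22 on untreated Ndst1-deficient array 1.2, against 8.34 to 8.49 on the other 3 arrays of its group, with a gap of 0.834 of the group's range. Ids read 11.16 on untreated wild-type array 2.1, against 10.55 to 10.61 on the other 3, with a gap of 0.908 of the range. In 0 of the 27 members did all 4 differences of one genotype run opposite to all 4 of the other, for agLDL, duplicate number or mouse number. Members named for a difference between numbers over both genotypes could hardly do so for that number.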

How the results depend on the processing

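No member passed in any labelled comparison or in the test of mouse by duplicate number under any alternative tried, including the replicate block of mouse number or of number, which gave 0 members each and in this paired form changed no call. Between mouse numbers, where 12 members passed, 6 passed over the 8 averaged values, 3 within the wild-type slide, 1 within the Ndst1-deficient slide, 1 within untreated arrays and 3 within agLDL arrays, and 8 to 15 on leaving out single arrays. Between duplicate numbers, where 16 passed, 10 passed within the wild-type slide, 9 within the Ndst1-deficient slide and 8 within untreated arrays, and 14 to 19 on leaving out single arrays. V-ATPase subunits that rose were 7, against 11 without background correction, 4 within the Ndst1-deficient slide, 4 within untreated arrays and 7 to 9 on leaving out single arrays. The V1 and V0 counts without array 1.2 in the report were also chosen after seeing the data. These within-slide and within-treatment fits use 8 arrays. Counts under the alternatives are given without the share of all genes that passed in the same setting. They show only whether the members' calls held. With every kept probe tested apart, an alternative added after seeing the data, 14 members had a passing probe between mouse numbers and 20 between duplicate numbers.

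Of the passing values named above, 24 were followed through the alternatives. Gusb between mouse numbers and Atp6v0d1, Atp6v0e and Atp6v1e1 between duplicate numbers were not. Over 608 alternative values of the 24, 487 kept direction and call, 120 kept direction and lost the call, and 1 reversed: Lamp2 between mouse numbers was 0.0245 as the mean of its probes. Of 23 followed values that had not passed, over 555 alternatives, 0 passed and 13 reversed. Mcoln1 between mouse numbers reversed within the Ndst1-deficient slide (-0.105), within agLDL arrays (-0.0149) and without untreated Ndst1-deficient array 1.1, wild-type agLDL array 2.1 or untreated wild-type array 2.2, with a range of -0.0259 to 0.0898 on leaving out single arrays. Ctsk between mouse numbers reversed within agLDL arrays (-0.127) and without untreated Ndst1-deficient array 1.1 or 2.1 (range -0.0378 to 0.154). For agLDL in wild-type cells, Atp6v1g1 reversed without wild-type agLDL array 2.2 (range -0.0367 to 0.364), and Atp6v1c1 without wild-type agLDL array 1.1 or 2.1 or untreated wild-type array 1.2 or 2.2 (range -0.338 to 0.154). In the labelled comparisons, leaving out 1 array leaves a mouse and treatment on a single duplicate number. The duplicate difference, 0.75 for Atp6v1c1 and 0.41 for Atp6v1g1, then enters the value.

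Idua between duplicate numbers kept its call without untreated wild-type array 1.1 or 1.2, untreated Ndst1-deficient array 1.2 or 2.1, or agLDL array 2.2 of either genotype, and lost it without any of the other 10. Between mouse numbers, Lamp2 kept its call without Ndst1-deficient agLDL array 1.1 or 2.1, untreated wild-type array 1.2 or 2.1, wild-type agLDL array 2.2 or untreated Ndst1-deficient array 2.2. Atp6v0b kept it without Ndst1-deficient agLDL array 1.1 or 2.2, untreated array 1.2 of either genotype or untreated wild-type array 2.1. Atp6v0a1 kept it without untreated Ndst1-deficient array 1.2 or 2.1 or untreated wild-type array 2.2. The number of mice, 2 a group, limits the precision of the labelled comparisons, and the cause of lost calls was not tested.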
